A study of Mus musculus with 6 samples.

Results

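The genes examined were 9 members of the class II major histocompatibility complex (MHC) presentation system: H2-Aa, H2-Ab1, H2-Eb1, Cd74, H2-DMa, H2-DMb1, H2-Oa, H2-Ob and Ciita. They were taken by name through the platform annotation, which gave them 19 of the 45037 probe sets tested, 16 assigned to 1 gene and 3 shared with a neighbouring gene. The study compared splenic T cells of miR-142 KO mice, which lack a microRNA made throughout the blood lineages, with those of wild-type (WT) littermates, 3 arrays of each genotype. All mice were male C57BL/6 animals aged 10 weeks, no treatment was named, and the details of the deleted allele are not given in the sources used here. Each array held RNA of T cells enriched from 1 spleen by negative selection, in which other cells are removed and T cells are left untouched. Values are log2 probe-set intensities, so that a difference of 1 is a doubling.

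Class II molecules are surface dimers that display peptides from engulfed material to CD4 T cells. In the mouse they are made mainly by B cells, dendritic cells and macrophages, while T cells carry the receptors that read them and make little class II of their own. The alpha and beta chains assemble in the endoplasmic reticulum on the invariant chain Cd74, whose remnant is exchanged for peptide in endosomes with the help of the H2-DM dimer. The H2-O dimer restrains H2-DM, and Ciita is the coactivator that switches on the alpha and beta chains and Cd74.

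The members did not move together. H2-Ab1 and the probe sets that H2-DMb1 shares with H2-DMb2 rose in KO, and H2-Oa and a shared probe set of H2-Ob fell. Ciita, H2-DMa, H2-Aa, H2-Eb1, Cd74 and the probe set of H2-Ob alone did not pass the test. The call of H2-Ab1 was lost without WT replicate 2 and without WT replicate 3. A call here is an adjusted p below 0.05 in limma, a linear model fitted to all probe sets, and "rose" and "fell" are used only of calls. Of the 19 probe sets 5 rose, against 13.9% of all probe sets, and 2 fell, against 15.5%. Counting genes by their brightest probe sets, 1 of the 8 members with a probe set of their own rose and 1 fell, against 18.6% in each direction over 18193 genes. The shares of the genes called were thus near those of the array as a whole. The median difference of the 8 genes, KO minus WT, was 0.66, beside -0.06 over all genes.

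Class II genes share a promoter module, in which an X box bound by the RFX complex stands a fixed distance before a Y box bound by NF-Y, and Ciita binds the factors assembled there. RefSeq promoter windows (GRCm38.p6) were at hand for 6 of the 9 members. The X box core GNAAC, followed after 15 to 35 bases by the Y box ATTGG, was sought in the 250 bases before the start, on both strands. This pair was found in 5 of the 6 members, that is in 5 of their 7 windows, and in 2.98% of 32851 windows of the same length. The core alone was in 79.6% and the Y box alone in 33.8% of windows, so only the spaced pair is uncommon. The match is of letters and does not show binding. The 5 stretches are printed in the direction of transcription, with the core and the Y box in capitals, because they let the shared module be compared between class II genes:
H2-Aa: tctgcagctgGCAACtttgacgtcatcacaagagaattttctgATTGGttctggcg
H2-Eb1: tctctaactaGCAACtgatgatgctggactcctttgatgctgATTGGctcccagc
H2-DMb1: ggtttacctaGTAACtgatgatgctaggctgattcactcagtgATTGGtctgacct
H2-Oa: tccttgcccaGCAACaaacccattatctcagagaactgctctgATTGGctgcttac
H2-Ob: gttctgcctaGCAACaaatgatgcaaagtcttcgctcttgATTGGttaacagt

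They lie at chr17:34287859-34287914 on the minus strand for H2-Aa and on the plus strand at chr17:34305766-34305820 for H2-Eb1, chr17:34153087-34153142 for H2-DMb1, chr17:34092293-34092348 for H2-Oa and chr17:34238808-34238860 for H2-Ob. The gap between core and Y box was 28 bases in H2-Aa, H2-DMb1 and H2-Oa, 27 in H2-Eb1 and 25 in H2-Ob. Both windows of H2-DMa lacked the pair. Of the related genes that are not members, H2-Eb2 had the pair and H2-DMb2 lacked it.

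The arrays had medians from 5.7 to 5.77. The transcript listed as Mir142, the host of the deleted microRNA, lay between 7.67 and 8.13 in WT and between 5.88 and 5.97 in KO. Whether its probe set lies in the deleted part was not known here. T cell markers averaged 11.20 to 11.22 on the WT arrays and 8.62 to 9.93 on the KO arrays. Of 11 measured T cell markers 10 fell, against 18.6% of all genes, the exception being a dim probe set of the T cell receptor alpha locus. Neutrophil and eosinophil markers averaged 5.90 to 6.93 in WT and 10.11 to 11.86 in KO, and 11 of 12 rose, against 18.6% of all genes. KO preparations thus held less T cell signal and more granulocyte signal, and in such bulk samples fewer cells of a type and less RNA per cell cannot be told apart. KO replicate 1 stood apart in its 18S ribosomal controls, at 7.86 against 9.15 and 9.19 in the other KO arrays and 9.47 to 9.66 in WT. The excess of 3′ over 5′ signal for Actb, a sign of RNA integrity, was 0.32 to 0.40 in KO and 0.16 to 0.23 in WT, and the part of RNA quality in the class II values was not tested.

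The classical alpha and beta chains form the peptide-binding dimers themselves, I-A from H2-Aa and H2-Ab1. H2-Eb1 encodes the beta chain of I-E, a dimer that C57BL/6 mice do not complete because they lack a working alpha chain. H2-Ab1 was measured by its brightest probe set, 1450648_s_at, at 8.94, 7.73 and 7.67 in WT replicates 1 to 3 and at 10.54, 9.80 and 9.32 in KO replicates 1 to 3. The lowest KO array was brighter than the brightest WT array, and replicate 1 was the highest of each genotype. H2-Ab1 rose 3.41-fold, by 1.77 ± 0.41 (SE, n = 3 per group; limma adjusted p = 0.016). Its further probe sets, 1451721_a_at and 1425477_x_at, rose by 1.69 and 1.20 and did not overlap between genotypes either. All 3 calls were lost without WT replicate 2 and without WT replicate 3. For the brightest probe set the adjusted p was then 0.063 and 0.058, with differences of 1.58 and 1.55, and the 2 dimmer probe sets also lost their call without KO replicate 1.

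H2-Aa, at probe set 1435290_x_at, had values of 9.71, 8.15 and 8.24 in WT and 11.11, 9.23 and 9.59 in KO. WT replicate 1 lay above KO replicates 2 and 3, so the genotypes overlapped. The means were 8.70 ± 0.88 in WT and 9.98 ± 0.99 in KO (SD, n = 3). The difference was 1.28, with a 95% interval from -0.07 to 2.62 (limma adjusted p = 0.142). The other H2-Aa probe sets differed by 0.79 to 1.18, none called. Of the 4, 3 have the suffix _x_at and 1 the suffix _s_at, which mark possible cross-hybridisation with related sequences. The same limit applies to 1450648_s_at and 1425477_x_at of H2-Ab1 and to 1449580_s_at, shared by H2-DMb1 and H2-DMb2, all of which rose. H2-Eb1 had values of 8.57, 7.23 and 7.5 in WT and 9.85, 8.04 and 8.42 in KO at 1417025_at. Its order of arrays was that of H2-Aa, and its difference of 1.00 had an interval from -0.20 to 2.21 (limma adjusted p = 0.192).

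Cd74, the invariant chain, which also acts as a receptor of the cytokine Mif, had values of 8.99, 7.79 and 7.46 in WT and 10.09, 8.88 and 9.30 in KO at 1425519_a_at. KO replicate 2 lay just below WT replicate 1, and the other KO arrays lay above all WT arrays. The difference of 1.34, with an interval from 0.31 to 2.37, missed the threshold (limma adjusted p = 0.057). It passed without WT replicate 1 (1.80, limma adjusted p = 0.016) and without KO replicate 2 (1.61, limma adjusted p = 0.028). It also passed with the filter on dim probe sets (limma adjusted p = 0.044), with array weights (limma adjusted p = 0.038) and under scaling to the hybridization controls (1.71, limma adjusted p = 0.0096). Cd74 did not pass without WT replicate 2 (1.20, limma adjusted p = 0.165) or WT replicate 3 (1.04, limma adjusted p = 0.158). Nor did it pass without KO replicate 1 (1.01, limma adjusted p = 0.15) or KO replicate 3 (1.41, limma adjusted p = 0.105). Repeated quantile normalization (limma adjusted p = 0.077) and trend with robust fitting (limma adjusted p = 0.087) brought no call either.

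The mean of H2-Aa, H2-Ab1, H2-Eb1 and Cd74 was 9.05 in WT replicate 1 against 7.72 in each of the other WT arrays, and 10.40 in KO replicate 1 against 8.99 and 9.16. The spread within a genotype was therefore about as large as the difference between genotypes. The leave-out differences of H2-Aa ran from 0.71 without KO replicate 1 to 1.78 without WT replicate 1, and those of H2-Eb1 from 0.47 to 1.41 under the same omissions. Without both of these arrays, an omission chosen after seeing the data, the spread shrank and all 4 genes passed the test, with H2-Aa at 1.22 (limma adjusted p = 0.012) and H2-Eb1 at 0.87 (limma adjusted p = 0.037).

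**Figure D1:**
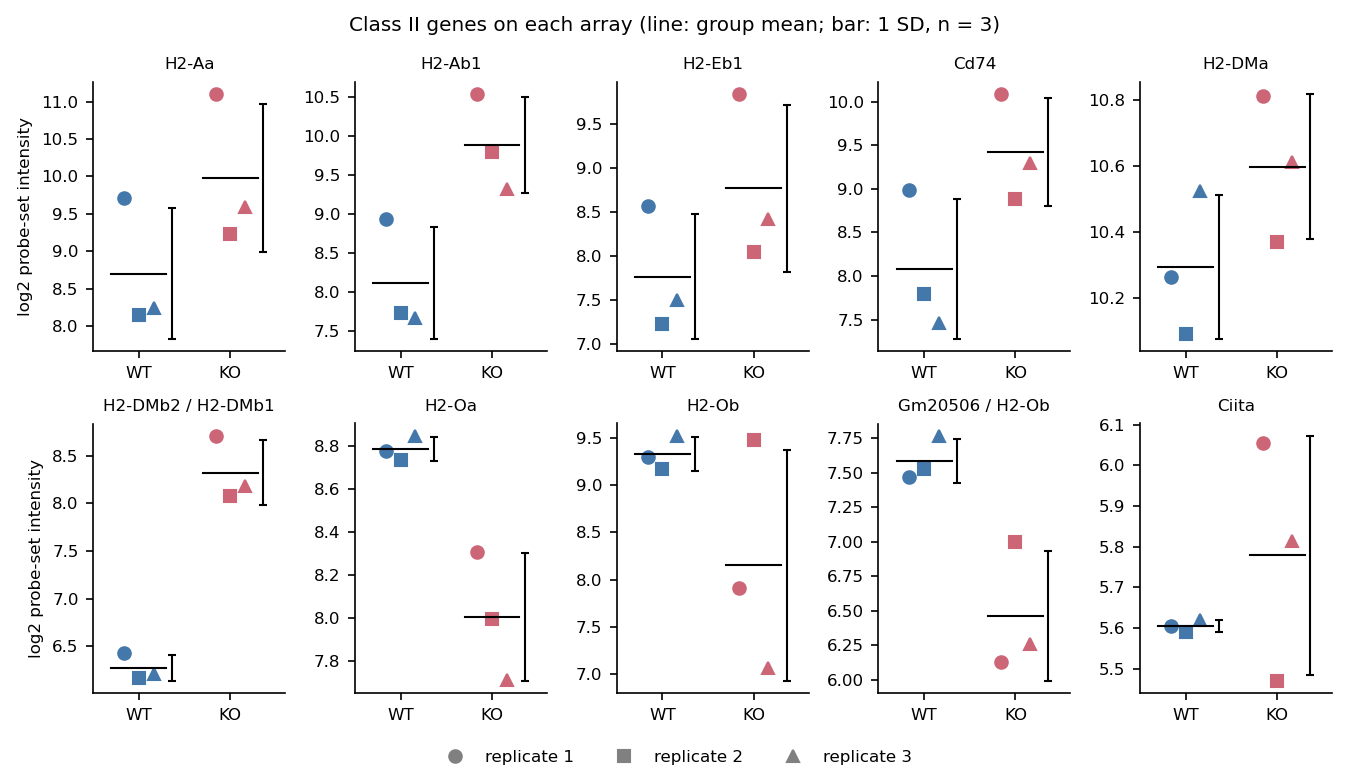
Log2 intensity of the class II genes at their brightest probe set on each array, with the shared probe sets of H2-DMb1 and H2-Ob in panels of their own. Blue marks are WT and red marks KO, shapes give the replicate number, lines are group means and bars 1 SD (n = 3), and each panel has its own vertical scale, which does not start at 0. Replicate 1 is the highest of both genotypes for H2-Aa, H2-Ab1, H2-Eb1 and Cd74, and the probe set of H2-DMb1 shows the clearest separation.

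H2-DM, the peptide editor, pairs an alpha chain, H2-DMa, with a beta chain that the mouse encodes in duplicate as H2-DMb1 and H2-DMb2. Both probe sets of H2-DMb1 are shared with H2-DMb2, so their signal belongs to the pair of genes and not to H2-DMb1 alone. The brighter one, 1449580_s_at, had values of 6.42, 6.17 and 6.21 in WT and 8.71, 8.07 and 8.18 in KO. The gap between the lowest KO array and the highest WT array was wider than the spread within either genotype. It rose 4.14-fold, by 2.05 ± 0.17 (SE, n = 3 per group; limma adjusted p = 0.00019), and the dimmer 1418638_at rose 6.92-fold, with means of 4.90 ± 0.14 in WT and 7.69 ± 0.44 in KO (SD, n = 3). The WT mean of 1418638_at lay below the median level of all probe sets, 5.77, and without detection calls its fold is uncertain. Neither call was lost under any omission of 1 array.

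A probe set assigned to H2-DMb2 alone, 1443686_at, had values of 6.87, 6.54 and 6.66 in WT and 8.64, 7.15 and 7.03 in KO. Its KO arrays also lay above the WT arrays, but KO replicate 1 carried much of the difference of 0.92, which was not called (limma adjusted p = 0.130). The partner H2-DMa had values of 10.26, 10.09 and 10.52 in WT and 10.81, 10.37 and 10.61 in KO at 1422527_at. The genotypes overlapped, and the difference was 0.31 with an interval from -0.05 to 0.66 (limma adjusted p = 0.182). Under hybridization control scaling it was 0.67 and called (limma adjusted p = 0.012). The other H2-DMa probe set differed by 0.32 and was not called, although its KO arrays lay above its WT arrays. Whether the beta chain signal changed more than that of H2-DMa was not tested.

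H2-O, the dimer that restrains H2-DM, is known chiefly from B cells and some dendritic cells. H2-Oa, its alpha chain, was steady in WT at 8.78, 8.73 and 8.85 and lower in KO at 8.31, 8.0 and 7.71 (1419297_at). No KO array reached the WT range. The group means were 8.79 ± 0.06 and 8.01 ± 0.30 (SD, n = 3). H2-Oa fell 1.72-fold (limma adjusted p = 0.0070), and the call survived the omission of any one array. It missed the threshold after scaling to the hybridization controls, where the difference was -0.41 (limma adjusted p = 0.060).

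H2-Ob, the beta chain, had values of 9.29, 9.17 and 9.52 in WT and 7.91, 9.47 and 7.06 in KO at its own probe set, 1440837_at. KO replicate 2 lay within the WT range, while the other 2 KO arrays were far below it. The difference of -1.18 was not called (limma adjusted p = 0.146) and was -1.84 without KO replicate 2 (limma adjusted p = 0.00085). Without KO replicate 3 it was -0.64 (limma adjusted p = 0.329), and no omission of an array other than KO replicate 2 brought a call. A second probe set, 1422201_at, is shared with Gm20506, a noncoding transcript next to H2-Ob. It had values of 7.47, 7.53 and 7.77 in WT and 6.12, 7.0 and 6.26 in KO, so that KO replicate 2 was again the highest KO array but below all WT arrays. This shared probe set fell 2.18-fold (limma adjusted p = 0.0085). KO replicate 2 also stood out for some B-lineage genes, chosen here after their values were seen: Ebf1, a B cell transcription factor, was at 11.22 there against 5.91 and 5.64 in KO replicates 1 and 3, and Vpreb3, made by developing B cells, at 12.12 against 8.07 and 7.76. Over the 18 measured B cell markers KO replicate 2 was the highest KO array for 10 and the lowest for 8, Ms4a1 among the latter. The part of B-lineage cells in the H2-Ob values was not tested.

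Ciita was dim and showed no call. Its brightest probe set, 1421210_at, was at 5.61, 5.59 and 5.62 in WT and at 6.05, 5.47 and 5.81 in KO, values near the median level of all probe sets, 5.77. The KO arrays scattered on both sides of the WT arrays. The difference was 0.17, with an interval from -0.17 to 0.52 (limma adjusted p = 0.424). The further Ciita probe sets differed by 0.13 and -0.01, and both changed sign when certain arrays were left out. RMA values carry no detection calls, and differences of dim probe sets are compressed, which limits what could be measured of Ciita here. Under hybridization control scaling the difference was 0.54 and called (limma adjusted p = 0.034).

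**Figure D2:**
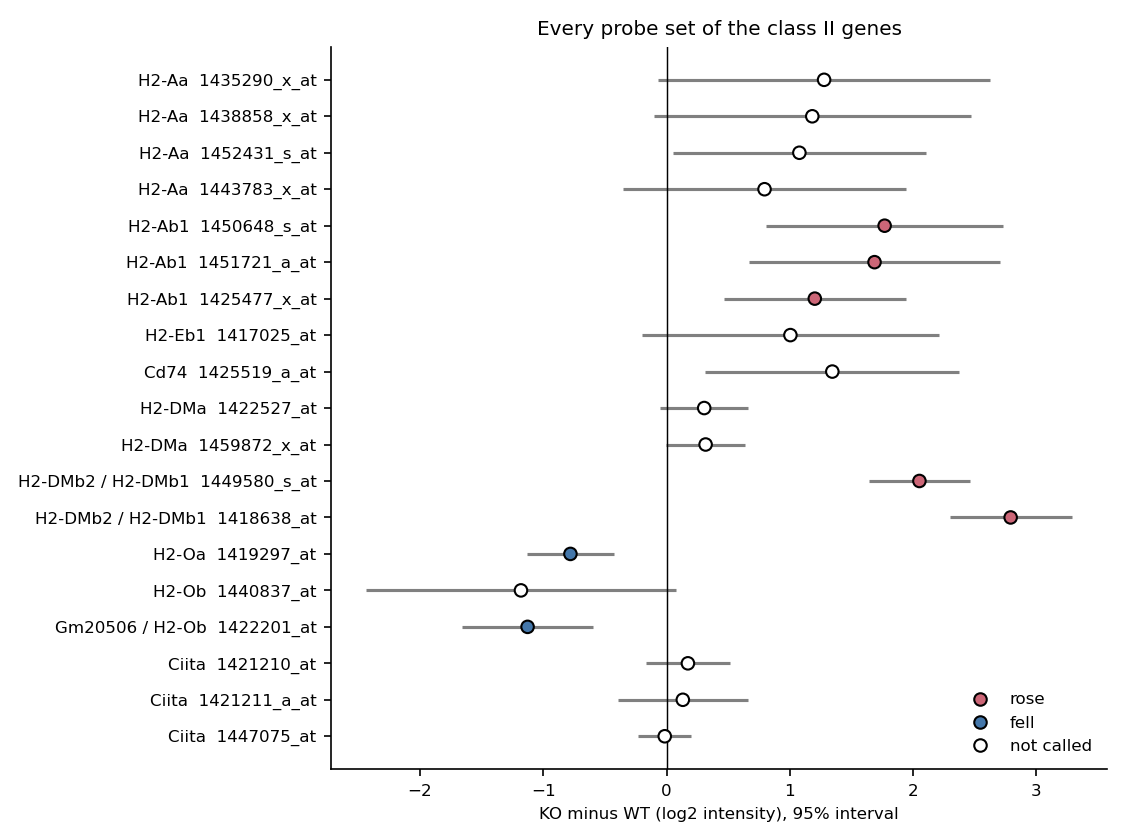
KO minus WT difference of each of the 19 class II probe sets on the log2 scale, with its 95% interval from limma. Red points rose, blue points fell and white points were not called. All probe sets of H2-Aa, H2-Ab1, H2-Eb1 and Cd74 lie to the right of 0 with wide intervals. Those that H2-DMb1 shares with H2-DMb2 lie farthest right, and those of H2-Oa and H2-Ob lie to the left.

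Over the 19 probe sets, all KO arrays were brighter than all WT arrays for 6, against 18.5% of all probe sets, and dimmer for 2, against 27.4%. The hybridization controls, which are added in fixed amounts, were lower in KO (9.80 to 9.91) than in WT (10.10 to 10.30). Scaling each array to them moved the median difference of all probe sets from -0.08 to 0.29. Under this scaling 14 of the 19 probe sets rose, against 38.4% of all probe sets, and 1, shared by H2-Ob and Gm20506, fell, against 5.19%. The 14 included the brightest probe sets of H2-Aa (1.64, limma adjusted p = 0.032) and H2-Eb1 (1.37, limma adjusted p = 0.042).

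Cells that make class II were followed through marker lists on the same arrays. Over all genes 18.6% rose and 18.6% fell, shares to be set beside the counts of calls in these and the later lists. B cell markers averaged 7.12, 6.84 and 6.74 in WT replicates 1 to 3 and 7.69, 8.13 and 7.09 in KO replicates 1 to 3. By this mean the highest WT array was replicate 1, as for the classical chains, but the highest KO array was replicate 2. Single markers were divided, with KO replicate 2 the highest KO array for 10 of 18 and the lowest for 8. H2-Aa, H2-Eb1 and Cd74 were lowest in KO replicate 2 among the KO arrays. H2-Ab1 was lowest in KO replicate 3. Of 18 measured B cell markers 2 rose and 1 fell, with a median difference of 0.41. Blnk, a signalling adaptor, and Spib, a transcription factor, rose by 2.34 and 2.15, and Cd72, a surface coreceptor, fell by 1.10. Both rises lost their call without WT replicate 2 and without WT replicate 3, where 0 markers rose, against 10.5% and 12.2% of all probe sets. Most markers, 6, rose without KO replicate 2, against 13.2% of all probe sets. Ms4a1, the mature B cell antigen CD20, was at 7.79, 6.82 and 6.49 in WT and at 8.80, 5.89 and 7.71 in KO. It was named after its values were seen, and it was not called (limma adjusted p = 0.685). Like H2-Aa, Ms4a1 was highest in replicate 1 of both genotypes, but KO replicate 1 was the highest KO array for only 7 of the 18 markers. Plasma cell markers averaged 8.75 in WT replicate 1 against 8.04 and 7.87 in the other WT arrays, and 8.52 to 8.66 in KO.

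Conventional dendritic cell markers averaged 7.04, 6.81 and 6.87 in WT and 7.67, 7.33 and 7.5 in KO. Here too replicate 1 was the highest of both genotypes. Of 11 measured, 6 rose and 2 fell. Cd24a, a surface protein that many other blood cells also carry, rose by 2.55. Flt3, a growth factor receptor of dendritic cells and progenitors, rose by 2.17, and Clec10a, a lectin of dendritic cells and macrophages, by 2.12. Ccr7 and Ly75, the 2 that fell, are also expressed by T cells. Plasmacytoid dendritic cell markers overlapped, from 8.18 to 8.48 in WT and from 8.08 to 8.60 in KO, and of 8 measured Tcf4, a factor of their development, rose by 2.34 and Pacsin1 fell by 1.90. Monocyte and macrophage markers averaged 5.28 to 5.69 in WT and 7.14 to 7.89 in KO, and 10 of 18 rose. The part of any of these cells in the class II values was not tested.

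**Figure D3:**
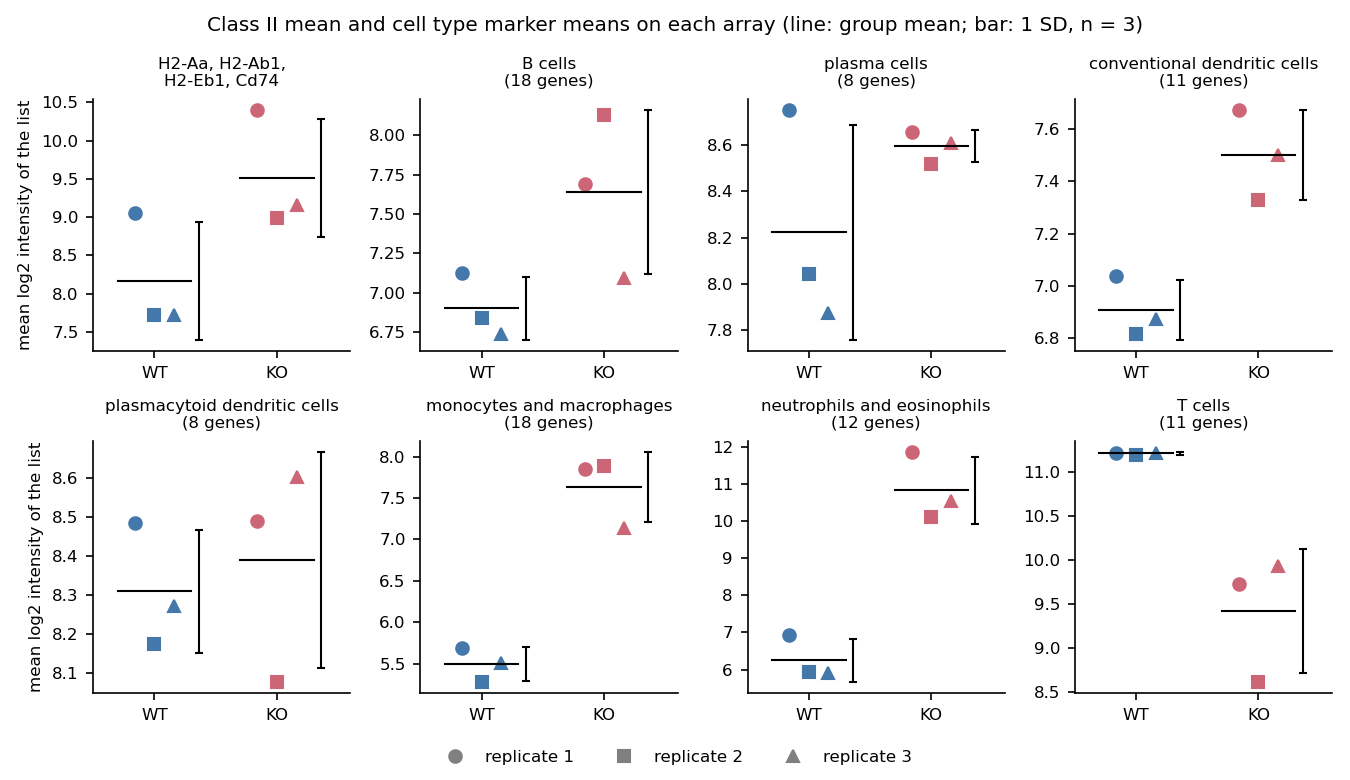
Mean log2 intensity per array of H2-Aa, H2-Ab1, H2-Eb1 and Cd74 (first panel) and of 7 lists of cell type markers, in blue for WT and red for KO. Shapes give the replicate number, lines are group means and bars 1 SD (n = 3), and each panel has its own vertical scale, which does not start at 0. The class II mean is highest in replicate 1 of both genotypes. The B cell mean is highest in KO replicate 2, the highest KO array for 10 of its 18 markers and the lowest for 8. The T cell mean is lower on every KO array than on any WT array.

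Among the factors that occupy class II promoters beside Ciita, 1 of 7 rose and 2 fell, against 18.6% of all genes in each direction. Rfxank, a subunit of the RFX complex, fell by 1.15 ± 0.16 (SE, n = 3 per group; limma adjusted p = 0.0017). Rfxap, another RFX subunit, fell by 0.53, a call lost under hybridization control scaling. Rfx5, the subunit that contacts DNA, differed by -0.13 and was not called. Nfya, a subunit of NF-Y, rose by 0.92 ± 0.13 (limma adjusted p = 0.0019), while its partners Nfyb and Nfyc differed by -0.12 and 0.02 without a call.

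Of 7 measured factors known to act on the Ciita gene 2 rose and 2 fell, against 18.6% of all genes in each direction. Spi1, the myeloid and B cell factor PU.1, rose by 3.03 ± 0.22 (SE, n = 3 per group; limma adjusted p = 0.00011), from 5.83 to 5.97 on the WT arrays to 8.55 to 9.47 on the KO arrays. Irf8, which acts with PU.1 in myeloid and B cells, rose by 2.99 ± 0.18. Irf1, which carries the interferon signal to Ciita, fell by 1.21 ± 0.23, and Prdm1, a repressor of Ciita in plasma cells, fell by 1.19 ± 0.26. All 4 calls held when each array was left out and under hybridization control scaling.

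Among 9 genes of antigen processing in endosomes 5 rose and 1 fell. Ctsh, a cathepsin, rose by 4.41 ± 0.33 (SE, n = 3 per group; limma adjusted p = 0.00013), from 5.40 to 6.41 in WT to 9.69 to 10.79 in KO. Ctse, an aspartic protease, rose by 2.22 ± 0.22, and Ifi30, the thiol reductase that unfolds antigens, by 2.02 ± 0.26. Ctsl, which processes Cd74 in the thymus, rose by 1.06 ± 0.14. Ctss, which processes Cd74 in B cells and dendritic cells, went the other way and fell by 0.75, and it lost its call when any one WT array was omitted and under hybridization control scaling. Monocyte and macrophage markers averaged higher on the KO arrays, as given above, and their part in these values was not tested.

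Among 7 genes of class II turnover and Cd74 signalling 4 rose and 1 fell. When WT replicate 1 or 2 was left out 2 rose, against 10.6% and 10.5% of all probe sets. Leaving out KO replicate 1 or 2 instead, 5 rose, against 12.9% and 13.2%. Marchf8, a ubiquitin ligase for class II and other surface proteins, rose by 2.97 ± 0.23 (SE, n = 3 per group; limma adjusted p = 0.00013). Its relative Marchf1, the ligase that removes class II from dendritic and B cells, rose by 1.05, a call lost without any one WT array. Cd83, which shields class II from Marchf1, fell by 1.94 ± 0.29, and Cd44, a signalling partner of Cd74, rose by 0.67 ± 0.12. Of 6 costimulatory ligands, which accompany class II on presenting cells, 1 rose and 3 fell, against 18.6% of all genes in each direction. Cd86 fell by 1.37 ± 0.19 and Pdcd1lg2 by 1.31 ± 0.21, Cd274 fell by 0.78 and Icosl rose by 0.59, the last 2 losing their call without WT replicate 2 or 3. Hybridization control scaling ended the call of Cd274 too, as did omitting WT replicate 1, and omitting KO replicate 1 ended that of Icosl. Both calls were lost without both arrays numbered 1. On the T cell side Cd4, the coreceptor of class II, fell by 1.58 ± 0.23, and Lag3, an inhibitory receptor of class II, differed by -0.48 without a call.

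**Figure D4:**
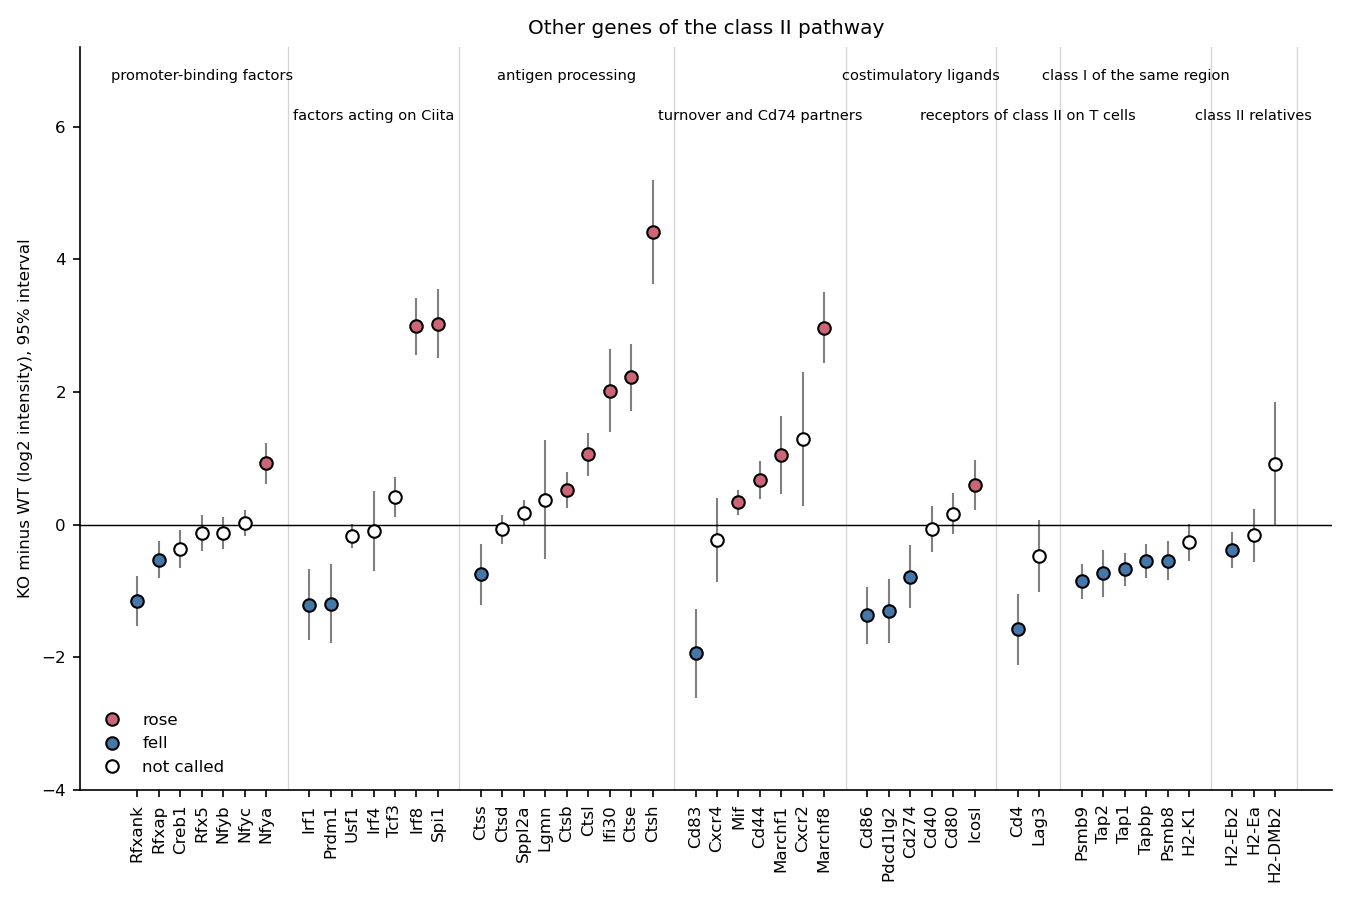
KO minus WT difference on the log2 scale for other genes of the class II pathway and its surroundings, grouped by role, with 95% intervals from limma. Red points rose, blue points fell and white points were not called. Ctsh, Spi1, Irf8 and Marchf8 lie highest, Cd83 lies lowest, and the class I genes of the same region lie below 0 as deposited.

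All members except Cd74 and Ciita lie in the MHC on chromosome 17, where class I antigen-processing genes are interleaved with them. Between H2-Oa and H2-Ea the gene order is H2-Oa, Brd2, H2-DMa, H2-DMb2, H2-DMb1, Psmb9, Tap1, Psmb8, Tap2, H2-Ob, Gm20506, H2-Ab1, H2-Aa, H2-Eb1, H2-Eb2 and H2-Ea. Of the 8 measured genes in this stretch that are not members 5 fell, against 18.6% of all genes. They were the immunoproteasome subunits Psmb9 (by 0.86 ± 0.11, limma adjusted p = 0.0013) and Psmb8, the peptide transporters Tap1 and Tap2, and H2-Eb2. Of these 5 calls hybridization control scaling kept that of Psmb9, and H2-DMb2 rose under it. Psmb8 also lost its call without WT replicate 2 or 3. H2-Eb2, a sparsely expressed beta chain next to H2-Eb1, was at 7.38 to 7.71 in WT and 7.03 to 7.27 in KO, and its fall of 0.38 (limma adjusted p = 0.041) kept its call in only 1 of the 6 omissions of an array, that of WT replicate 3. H2-Ea, the alpha chain that C57BL/6 mice do not express, was at 7.68 to 8.19 in WT and 7.65 to 8.09 in KO. These values lie above the median level of all probe sets, 5.77, and what the probe set detects was not tested. H2-Ea differed by -0.17 and was not called.

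The 5 genes whose arrays most resembled the mean of H2-Aa, H2-Ab1, H2-Eb1 and Cd74 were sought among 11476 genes at or above the median level. They were U2af2, Gm1673, Zfand5, Gstm3 and 1600010M07Rik, with Pearson r from 0.970 to 0.988 over the 6 arrays. All had small differences between genotypes, from 0.11 for U2af2 to 0.49 for 1600010M07Rik, and Gm1673 alone was called. With 6 arrays of 2 genotypes and this many genes, such ranks describe these arrays only.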

How the data were processed

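The members, gene lists, tests and alternatives were chosen with earlier results of these data known. The deposited table held log2 intensities of 45101 probe sets, made with RMA (version not given) by the authors, per the submitters' processing notes. They were used as deposited, after 64 array controls were set aside. Per the labels, RNA was amplified from oligo(dT) and random primers. Of 45037 probe sets, the platform annotation gave 1 gene to 34945, several to 932 and none to 9160. The brightest probe set on average stood for a gene, and every probe set of the members was reported. Other genes named were up to 4 called genes per list with the largest differences, every gene of lists of 3 or fewer, and the 5 genes most like the classical chains. Not every gene that this rule allows is named. Outside it, Ctss, Psmb8, Ly75, Ms4a1, Ebf1, Vpreb3 and uncalled genes of longer lists were named after their values were seen.

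limma 3.58.1 in R 4.3.3 (lmFit, eBayes) compared KO with WT, two-sided, with Benjamini-Hochberg adjustment across the 45037 probe sets. The same fit was also run on simulated arrays with independent noise. Those lack the differences in cell content and RNA quality seen here, so that run does not bear on the calls. Differences are KO minus WT with the moderated SE. Each replicate was 1 animal, as T cells came from individual spleens per the labels, and the small number of arrays limits precision. Alternatives were a repeated quantile normalization, scaling to 18 hybridization controls, a filter at the median level, the replicate number as a block, array weights, robust fitting with a trend, a threshold of 0.10, each array left out, and the mean of probe sets. Leaving out WT replicate 1 with KO replicate 1 was added after seeing the data. With 2 arrays of a genotype remaining, the spread came from both genotypes together.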

Additional observations from a re-analysis of the deposited data

How the results depend on the processing

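Among the 8 members with a probe set of their own, 1 rose and 1 fell as deposited, against 18.6% of all genes in each direction. Over all probe sets the shares were lower, at 13.9% and 15.5%. The shares set beside the member counts below are over all probe sets tested in each setting. Shares over genes at their brightest probe set were not computed there, so members and background are counted in unlike ways. Under hybridization control scaling 6 rose and 0 fell, against 38.4% and 5.19% of all probe sets. The number that rose was 2 with the filter at the median level, against 25.3%, and 2 at a threshold of 0.10, against 16.3%. It was 4 without both arrays numbered 1, against 8.94%. With array weights 2 rose and 2 fell, against 14.8% and 17.5%. Omitting 1 array at a time, 0 to 2 rose, against 10.5% to 13.2%, and 1 to 2 fell, against 10.4% to 14.2%. With the replicate block 4 rose, adding H2-Aa, H2-Eb1 and Cd74, against 11.8% of all probe sets. The labels do not say that equal replicate numbers mark a shared litter or day. Same-numbered arrays correlated in their deviations from the group means at 0.10, -0.24 and -0.20, and differently numbered ones at -0.16 to 0.27. With 3 arrays a genotype, these correlations cannot show whether the numbers pair the samples. A repeated quantile normalization, trend with robust fitting and the mean of probe sets left both counts as they were. No member at its brightest probe set changed direction under any alternative. The shared probe set of H2-DMb1 was called in all of them, and H2-Oa in all but hybridization control scaling. The probe set shared by H2-Ob and Gm20506 lost its call only without both arrays numbered 1. Over all probe sets, 17309 rose and 2337 fell under hybridization control scaling (88.1% of calls higher, against 47.2%), and 4028 rose and 3560 fell without both arrays numbered 1, against 6242 and 6986. The causes were not tested. Ciita fell below the filter and has no value there. With 3 arrays a genotype, signal near background limits what could be measured for Ciita.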
